A study of Saccharomyces cerevisiae with 27 samples.

Results

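Budding yeast carries a small set of phosphatase genes tied to phosphate supply, and 5 of them, PHO5, PHO3, PHO11, PHO12 and PHO8, were described here among 6664 genes of the deposited RNA table. The 5 are a list of names that share phosphatase activity, with no threshold on a measured value, and all 5 were found in the table. The list was chosen with earlier results of these data known. PHO5 (YBR093C), PHO11 (YAR071W) and PHO12 (YHR215W) encode secreted acid phosphatases that phosphate represses, PHO3 (YBR092C) encodes the constitutive acid phosphatase, which thiamine represses, and PHO8 (YDR481C) encodes the alkaline phosphatase of the vacuole.

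In this pathway the transcription factor Pho4, with Pho2, activates its targets when phosphate is scarce. When phosphate is ample, the cyclin and kinase pair Pho80 and Pho85 phosphorylates Pho4 and keeps it out of the nucleus, and Pho81 inhibits that kinase on starvation. PHO5 is a textbook case of a promoter whose nucleosomes are remodelled when the gene is switched on.

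RNA had been sequenced in yeast lacking the silencing factor Sir3 or subunits of INO80, a complex that moves nucleosomes with ATP. In the background BY4741 the strains were the wild type, the single deletions sir3, arp5, ies6 and ies2, and a strain lacking both SIR3 and ARP5 (sir3arp5). In the background CY337 they were the wild type and ino80, which lacks the ATPase. Arp5 and Ies6 are subunits that bind each other, and Ies2 is a further subunit. All RNA cells grew in YPD, a rich medium that contains phosphate, to an OD600 of 0.8 to 1, so no strain was starved for phosphate on purpose. Chromatin immunoprecipitation with sequencing (ChIP-seq) mapped trimethylated lysine 4 and lysine 79 of histone H3 (H3K4me3 and H3K79me3) in BY4741 and arp5. These cells were also taken at an OD600 of 0.8 to 1. Arp5 itself was mapped in the strain CY1838, in cells synchronised by nocodazole arrest and release into alpha-factor, at an OD of 0.6.

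The labels list 19 RNA libraries, between 1 (sir3arp5) and 3 per genotype, but the authors' RNA values reached the table as 1 column of FPKM (fragments scaled by gene length and by the number of mapped fragments) per genotype. There is thus no replicate spread for any value below, no test was run, and depth is unknown. In such bulk samples, fewer cells that make an RNA and less RNA per cell cannot be told apart. The comparison used log2 of (FPKM + 1), and a gene was counted when it reached 5 FPKM in either genotype. "Rose" and "fell" are used only past 2-fold on that scale, which understates the change of genes near 1 FPKM. Each deleted gene stood between 0 and 0.523 FPKM in its deletion strain. The median of all counted genes lay within 0.03 of 0 on the log2 scale, except between the wild types, where CY337 stood 0.37 above BY4741.

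PHO5, PHO3 and PHO8 are interior genes and PHO11 and PHO12 are terminal ones. In sacCer3 coordinates PHO5 spans 429548 to 430951 and PHO3 spans 427698 to 429101 on chromosome II, both on the minus strand, with PHO3 446 bp beyond the end of PHO5. PHO8 spans 1418550 to 1420250 on the minus strand of chromosome IV. PHO11 lies on the plus strand of chromosome I from 225460 to 226863, with the authors' distance from the chromosome end at 4.06 kb, and PHO12 on the plus strand of chromosome VIII from 552099 to 553502, at 9.84 kb. The 4 acid phosphatase gene models are each 1404 bp and that of PHO8 is 1701 bp. PHO11 and PHO12 are near-identical copies, and the assignment of reads that fit both was not given in the sources used here; their separate values are uncertain and their sum is given too.

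PHO5 RNA was lower in every strain lacking an INO80 subunit than in its wild type, and past 2-fold in 4 of those 5 strains. Its level was 189.4 FPKM in BY4741, 294.9 in sir3, 82.6 in arp5, 39.2 in ies6, 107.5 in ies2 and 56.5 in sir3arp5, and 331.2 in CY337 against 38.2 in ino80. The 2 lowest columns were ino80 and ies6, at almost the same level, and the highest were CY337 and sir3. The log2 change of PHO5 was -1.19 in arp5, -2.24 in ies6, -1.73 in sir3arp5 and -3.08 in ino80. In ies2 the value was -0.81 and in sir3 it was 0.64, both short of 2-fold.

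PHO11 and PHO12 fell in all 5 strains lacking an INO80 subunit, and further than PHO5 in each of them. PHO11 stood at 138.1 FPKM in BY4741, 117.2 in sir3, 19.3 in arp5, 6.94 in ies6, 34.4 in ies2, 34.9 in sir3arp5, 101.3 in CY337 and 6.24 in ino80. PHO12 stood at 163.7, 125.6, 22.04, 8.07, 39.1, 31.8, 116.6 and 4.65 FPKM in the same order. For both genes the wild types and sir3 were high, arp5, ies2 and sir3arp5 were between, and ies6 and ino80 were lowest.

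The sum of PHO11 and PHO12, which does not depend on how shared reads were split, was 301.8 FPKM in BY4741, 242.8 in sir3, 41.4 in arp5, 15.01 in ies6, 73.4 in ies2 and 66.6 in sir3arp5. It was 217.9 FPKM in CY337 and 10.9 in ino80. Between the copies, PHO11 stood at 0.84 to 1.34 times PHO12, the highest ratio being that of ino80, where both levels were low.

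PHO3 and PHO8 did not pass 2-fold in any of the 9 comparisons. PHO3 stood at 252.9 FPKM in BY4741, 245.1 in sir3, 250.2 in arp5, 233.1 in ies6, 305.0 in ies2, 415.0 in sir3arp5, 418.6 in CY337 and 332.0 in ino80. It kept 92.2% to 98.9% of its BY4741 level in sir3, arp5 and ies6, and the highest columns were CY337 and sir3arp5. PHO8 stood at 99.7, 143.4, 128.8, 105.3, 96.7, 126.1, 151.6 and 101.3 FPKM in the same order, with its lowest level in ies2 and its highest in CY337.

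**Figure D1:**
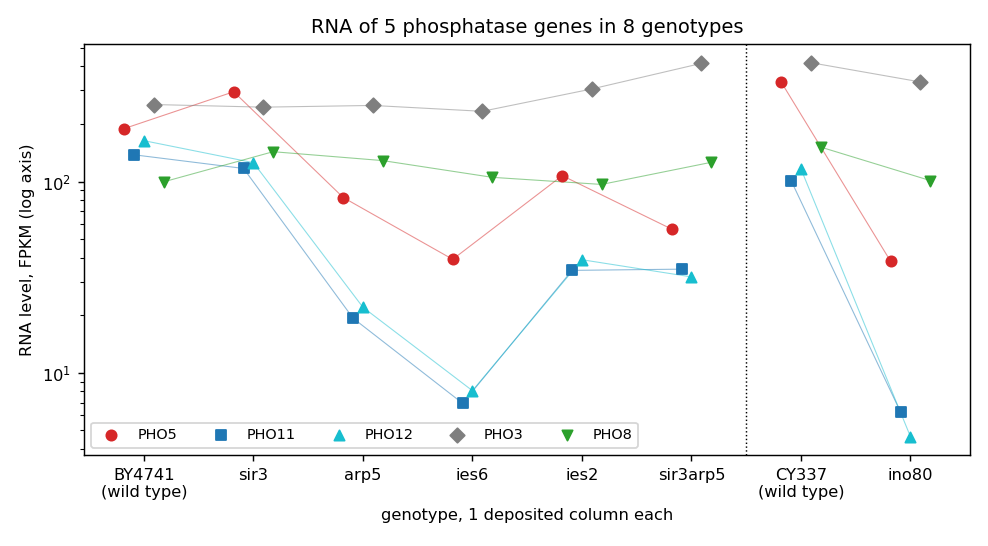
RNA level in FPKM (log axis) of the 5 phosphatase genes in 8 genotypes, 1 point per deposited column, with no error because each genotype has 1 column. The dotted line parts the BY4741 strains from the CY337 strains. PHO5, PHO11 and PHO12 drop in the INO80 subunit deletions, PHO11 and PHO12 to below 10 FPKM in ies6 and ino80, while PHO3 stays between 233.1 and 418.6.

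The makeup of acid phosphatase RNA differed between these strains. In BY4741, PHO3 made up 33.99% of the FPKM of the 4 acid phosphatase genes, and in sir3 31.3%. The share was 66.9% in arp5, 81.1% in ies6, 62.8% in ies2 and 77.1% in sir3arp5, and it went from 43.3% in CY337 to 87.1% in ino80. The summed FPKM of the 4 genes was 744.2 in BY4741, 374.1 in arp5 and 287.4 in ies6, and 967.7 in CY337 against 381.1 in ino80.

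PHO5 and PHO3 are adjacent and read from the same strand, yet their ratio differed widely. PHO5 stood at 0.75 times PHO3 in BY4741, 1.20 in sir3, 0.33 in arp5, 0.17 in ies6, 0.35 in ies2 and 0.14 in sir3arp5. In the other background it was 0.79 in CY337 and 0.12 in ino80. Both wild types were near the same ratio, and all 5 INO80 subunit deletions were below them.

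Against the share of all genes that moved, the counts read as follows. Because the members were chosen with earlier results of these data known, these shares are context and not a test. In arp5, 3 of the 5 genes fell and none rose, where 3.99% of 6321 counted genes fell and 6.45% rose. The log2 change was -2.84 for PHO12 and -2.77 for PHO11, or 7.43-fold and 7.15-fold lower FPKM, and 25 genes (0.40%) were as low as PHO12 or lower. PHO5 was less extreme, with 2.77% of genes as low or lower.

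In ies6 the same 3 genes fell, where 3.62% of counted genes fell and 5.72% rose. The log2 change was -4.18 for PHO12 and -4.13 for PHO11, or 20.3-fold and 19.9-fold lower FPKM. Only 12 of the counted genes were as low as PHO12 or lower in that strain, and 36 as low as PHO5. Across the BY4741 single deletions, ies6 thus had the lowest value of PHO5, PHO11 and PHO12. Whether ies6 differs from arp5 was not tested, since each has 1 column.

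In ies2, PHO11 and PHO12 fell and PHO5 did not, where 1.87% of counted genes fell and 3.89% rose. The log2 change was -1.98 for PHO11 and -2.04 for PHO12, or 4.02-fold and 4.19-fold lower FPKM. PHO5, at -0.81, was short of 2-fold although only 3.14% of genes were as low or lower in this strain. All 3 genes stood higher in ies2 than in arp5.

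In ino80 over CY337, PHO5, PHO11 and PHO12 fell, where 5.12% of counted genes fell and 8.26% rose. PHO12 went down 25.1-fold, PHO11 16.2-fold and PHO5 8.66-fold in FPKM. PHO5 kept 11.5% of its wild-type FPKM in ino80, against 20.7% in ies6 and 43.6% in arp5. The deleted subunit and the background cannot be told apart in this difference. The PHO5 levels of the wild types differed too, at 331.2 FPKM in CY337 and 189.4 in BY4741. PHO8, at -0.58, was lower by less than 2-fold, and so was PHO3 at -0.33.

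In sir3, 0 of 5 members passed 2-fold, where 2.14% of counted genes fell and 1.96% rose. In this narrow comparison 96.1% of counted genes were as low as PHO5 or lower, 94.5% as low as PHO8, at 0.52, and 6.92% as low as PHO12, at -0.38. The terminal genes PHO11 and PHO12 did not rise in sir3, where the median of 229 counted genes within 20 kb of a chromosome end was 0.30, with 32 higher and 10 lower. IMD2, which encodes an enzyme of guanine nucleotide synthesis and starts 893 bp beyond PHO12, rose from 49.6 to 168.8 FPKM in the same strain.

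In sir3arp5, which has 1 library, PHO5, PHO11 and PHO12 fell against BY4741, where 10.4% of counted genes fell and 16.7% rose. The log2 changes were -1.73 for PHO5, -1.95 for PHO11 and -2.33 for PHO12. Against sir3, where 8.66% of genes fell and 13.8% rose, the same 3 fell, with log2 changes of -2.36 for PHO5, -1.95 for PHO12 and -1.72 for PHO11. Against arp5 none passed 2-fold, where 6.54% fell and 12.2% rose: PHO5 stood at -0.54, PHO12 at 0.51, PHO11 at 0.82 and PHO3 at 0.73.

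This double deletion moved far more genes than the single ones, and its library cannot be told apart from its genotype. The median of counted genes on chromosome I was 0.40 and on chromosome VIII 0.22 in sir3arp5 over BY4741. Within 20 kb of an end the median of 261 genes was 0.96, with 125 genes higher and 23 lower. PHO11 and PHO12 were thus among the 23 lower, while IMD2 beside PHO12 rose to 230.9 FPKM. In arp5, ies6, ies2 and ino80 the medians of chromosomes I, II, IV and VIII were between -0.11 and 0.08, small beside the falls of PHO5, PHO11 and PHO12.

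**Figure D2:**
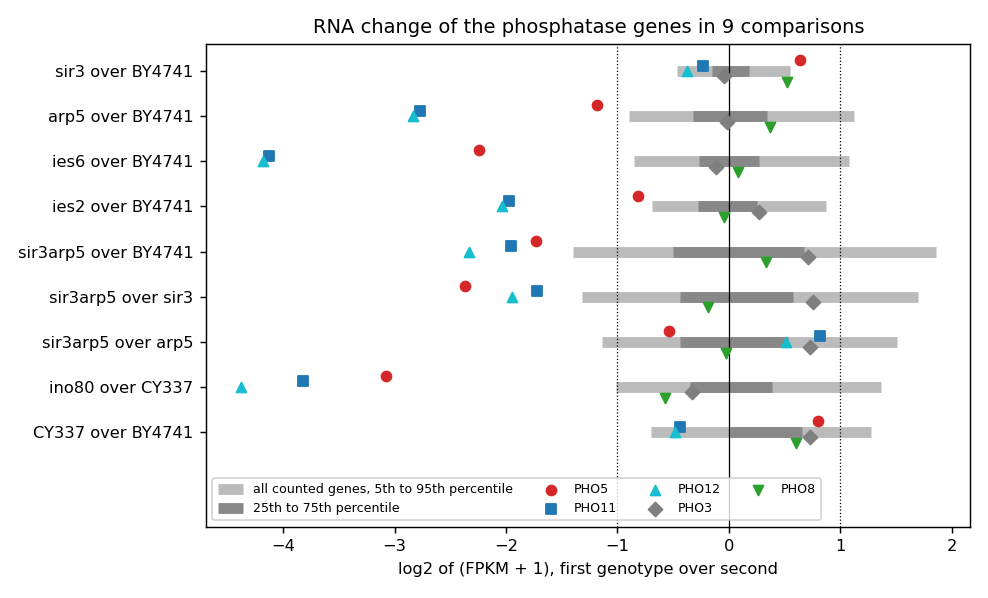
Log2 change of the 5 genes in 9 comparisons, with grey bars for the central ranges of all counted genes and dotted lines at 2-fold; each point comes from 1 column over another. PHO11 and PHO12 lie left of the grey bar in every comparison of an INO80 subunit deletion with its wild type, at -4.13 and -4.18 in ies6, and PHO3 and PHO8 lie inside the 2-fold lines throughout.

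Between the wild types, none of the members passed 2-fold, where 3.10% of counted genes were lower and 8.73% higher in CY337. With the overall shift of 0.37 taken off, PHO5 stood at 0.44, PHO3 at 0.36, PHO8 at 0.23, PHO11 at -0.81 and PHO12 at -0.85. Of the calls past 2-fold over all genes, 26.2% were lower as deposited and 57.9% after this centring.

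The strains lacking SIR3, ARP5, IES6 or IES2 share BY4741 as control, so their folds are not independent of each other. Over the 8 columns, Pearson's r of log2(FPKM + 1) was 0.995 between PHO11 and PHO12, 0.922 between PHO5 and PHO11 and 0.929 between PHO5 and PHO12. It was 0.04 between PHO3 and PHO5, 0.10 between PHO3 and PHO11 and 0.05 between PHO3 and PHO12. PHO8 had an r of 0.56 with PHO5, 0.44 with PHO11 and 0.43 with PHO12. These describe 8 columns in which all INO80 deletions sit together, and columns of one background share a wild type.

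Among 5777 genes with a mean of at least 10 FPKM, those most like PHO5 by the same measure were YMD8, PHO86 and YIP3, each at 0.958. PHO86 encodes a protein of the endoplasmic reticulum needed for export of the transporter Pho84, and went from 282.0 FPKM in CY337 to 110.1 in ino80. PHO86 led the genes most like PHO12 as well, at 0.966, followed by the transaldolase gene TAL1 at 0.962 and the ribosomal protein gene RPL13A at 0.960. For PHO11 they were YDR476C at 0.977, TAL1 at 0.974 and RPL13A at 0.970.

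The pattern of PHO3 was closest to that of MCM4, which encodes a subunit of the replicative helicase, with r of 0.995 and levels of 15.3 FPKM in BY4741, 26.6 in sir3arp5 and 27.9 in CY337. SWT21 followed at 0.992 and ERG13, of sterol synthesis, at 0.979. PHO8 had no gene as close: CAR1, the arginase gene, stood at 0.924, YMR321C at 0.893 and ILS1, an isoleucine tRNA synthetase gene, at 0.871.

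Other genes of phosphate supply were read from a list of 24 genes outside the members. In arp5, 7 of 23 counted list genes fell and 1 rose, with a median of -0.53 against 0.00 over all genes. In ies6, 7 of 23 fell and 1 rose, and in ies2 3 of 24 fell and 2 rose, the risers being PHM7 in ies6 and PHM7 and GIT1 in ies2. In ino80, 11 of 24 fell and 3 rose, and in sir3 0 of 23 fell and 1 rose. The share that fell was above that of all counted genes in the 4 INO80 subunit single deletions. This list too was chosen with earlier results of these data known, so the difference is not a test.

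Among the uptake genes, PHO89, a sodium-coupled phosphate transporter, fell from 37.1 FPKM in BY4741 to 3.26 in arp5, 2.45 in ies6 and 5.47 in ies2. SPL2, which encodes a regulator of low-affinity phosphate uptake, fell from 303.1 to 59.0, 44.0 and 106.6 FPKM in the same strains. The level of PHO84, which encodes the high-affinity phosphate transporter, went from 568.9 to 435.0 in arp5 and 317.0 in ies6, short of 2-fold, and from 813.2 in CY337 to 27.3 in ino80. The low-affinity transporter genes PHO87, PHO90 and PHO91 stood between -0.15 and 0.49 on the log2 scale in arp5, ies6, ies2 and ino80.

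Of the polyphosphate genes, VTC1, VTC3 and VTC4, which encode subunits of the vacuolar polyphosphate polymerase complex, fell in arp5, ies6 and ino80. VTC1, the most abundant, went from 2709 FPKM in BY4741 to 983.4 in arp5 and 900.3 in ies6, and from 2108 in CY337 to 382.8 in ino80. PHM8, a nucleotide phosphatase gene, fell in arp5 at -1.04 and in ino80 at -1.42, but stood at 0.46 in ies6.

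Of the regulators, PHO81 passed 2-fold in ies6 and ino80 and the other 4 in none of the 4 INO80 subunit single deletions. PHO4 stood at 27.5 FPKM in BY4741, 28.7 in arp5, 26.3 in ies6 and 29.6 in ies2, and at 66.6 in CY337 against 34.7 in ino80. PHO2, PHO80 and PHO85 stayed between -0.36 and 0.48 on the log2 scale in the 4 INO80 subunit single deletions. PHO81 was at -1.06 in ies6 and -1.36 in ino80 and stood at -0.99 in arp5, just short of 2-fold. Of the related phosphatase genes, PHO13 passed 2-fold in no comparison. DIA3, a gene related to those of the acid phosphatases, did not follow PHO5: it was listed at 4.90 FPKM in BY4741 and rose from 6.32 to 15.9 in ino80.

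Genes next to the members did not all move with them. PBY1, beyond the start of PHO5, stood at -0.81 in arp5 and -0.65 in ies6, and TIM12, beyond the end of PHO3, at 0.03 and -0.22. IMD2 beside PHO12 went from 49.6 FPKM in BY4741 to 29.9 in arp5 and 24.1 in ies6, and from 65.3 in CY337 to 17.2 in ino80. YAR068W, the nearest listed gene to PHO11, rose in arp5 by 1.11 on the log2 scale, while PHO11 fell.

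The authors also deposited ratios of mutant to wild-type RNA in 35 windows per gene: 15 that split the gene evenly, with 10 of 100 bp on either side. Their base is not stated and is taken as log2. For arp5 the authors' deposited table gave means over the 15 gene windows of -1.13 for PHO5, -2.34 for PHO11 and -2.45 for PHO12. All 15 windows were below 0 for each of these genes, so the lower RNA ran along the whole gene. The means in the authors' deposited table of ies6 were -1.97, -3.49 and -3.67, and in that of ies2 -0.69, -1.66 and -1.65.

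Of the members, 3 of 5 were past -1 in the authors' deposited table of arp5, where 1.30% of all genes were, and 3 of 5 in that of ies6, where 1.18% were. For ies2 it was 2 of 5 in the authors' deposited table, where 0.314% of all genes were. None of the members were past -1 in the authors' deposited table of sir3, where 1.46% of all genes were, with PHO5 at 0.39 and PHO12 at -0.45. PHO3 lay between -0.11 and 0.34 and PHO8 between 0.04 and 0.78 over the authors' 5 deposited tables that do not split strands.

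**Figure D3:**
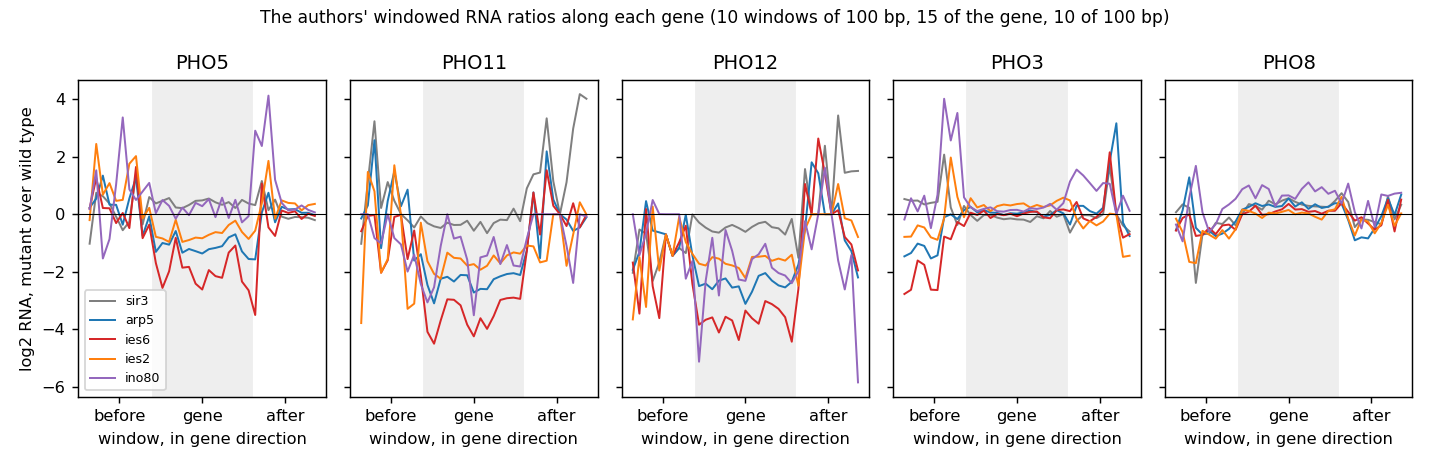
The authors' windowed log2 ratios of mutant over wild-type RNA for the 5 genes in 5 tables, with the gene shaded and windows in the direction of transcription; each line is 1 table and has no error. PHO11 and PHO12 lie below 0 across the gene in arp5, ies6 and ies2, with gene means of -3.49 and -3.67 in ies6, PHO3 stays near 0 inside the gene, and the ino80 line of PHO5 stays near 0 inside the gene but not on either side of it.

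The ino80 values of PHO5 depended on the table. In the authors' deposited table of ino80 over CY337 without strands, the mean over PHO5 was 0.17 and 9 of its 15 windows were above 0, although the FPKM table went from 331.2 to 38.2. The authors' deposited sense-strand table of ino80 gave a mean of -3.84 over PHO5, with all 15 windows below 0. The other phosphate genes differed in the same way: in the authors' deposited table without strands, 0 of 24 list genes were past -1, where 11 of 24 fell in FPKM.

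PHO11 and PHO12 were low in that table too, at -1.57 and -1.996, so 2 of 5 members were past -1 in the authors' deposited table, where 1.17% of all genes were. Across 2937 genes with a mean of at least 50 FPKM, r between window means and FPKM ratios was 0.35 for ino80 over CY337 and 0.71 to 0.76 for arp5, ies6 and ies2, genes not being independent replicates. CY337 and ino80 each have 2 libraries, 1 of them in a set labelled BIOO. The libraries behind each table were not given in the sources used here, and the fall of PHO5 in ino80 rests on the FPKM and sense-strand tables.

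The tables by strand hold 1553 genes, of which only PHO5 and PHO3 are members. The TruSeq v2 kit of the labels gives unstranded libraries, and a way of parting the strands was not given in the sources used here. What these values measure is therefore uncertain, and the authors name BY4741, of the other background, as the wild type of the ino80 strand tables. Over PHO5 the mean in the authors' deposited sense tables was -2.60 in arp5, -3.12 in ies6 and 0.25 in sir3. The arp5 and ies6 values lay below the FPKM changes of -1.19 and -2.24. They also lay below the means without strands, of -1.13 and -1.97, so the size of the fall depended on the table here too. The authors' deposited sense tables had 3.03% of genes past -1 in arp5, 4.38% in ies6 and 2.19% in ino80, and PHO5 was past -1 in each. PHO3 stood at 0.04 in arp5, 0.31 in ies6, 0.02 in ino80 and -0.05 in sir3 in the authors' deposited sense tables.

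The windows before PHO3 cover the end of PHO5, and in the authors' deposited sense tables they averaged -2.27 in arp5, -2.40 in ies6 and -3.08 in ino80. Single windows there varied widely: the last 100 bp before PHO3 stood at 3.19 in arp5, 3.14 in ies6, 2.24 in ino80 and 1.58 in sir3 in the authors' deposited sense tables. The first window inside PHO3 was at 0.20, 0.32, 0.03 and 0.04 in the same tables.

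Antisense values of PHO5 and PHO3 lay apart in arp5 and ies6 and close together in sir3 and ino80. Over PHO5 they averaged 0.09 in arp5, -0.29 in ies6 and -0.62 in sir3 in the authors' deposited antisense tables, and 1.32 in ino80. Over PHO3 they averaged -1.96 in arp5, -1.35 in ies6 and -0.54 in sir3, and 1.49 in ino80. In arp5, 0.26% of genes in the authors' deposited antisense table were as low as PHO3 or lower, where 2.32% were past -1. As for ino80, 38.2% of genes in the authors' deposited antisense table were past 1, so the values of PHO5 and PHO3 there were common ones. PHO84 stood at 2.96 in arp5 and 4.58 in ino80 in the authors' deposited antisense tables, far above both acid phosphatase genes.

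**Figure D4:**
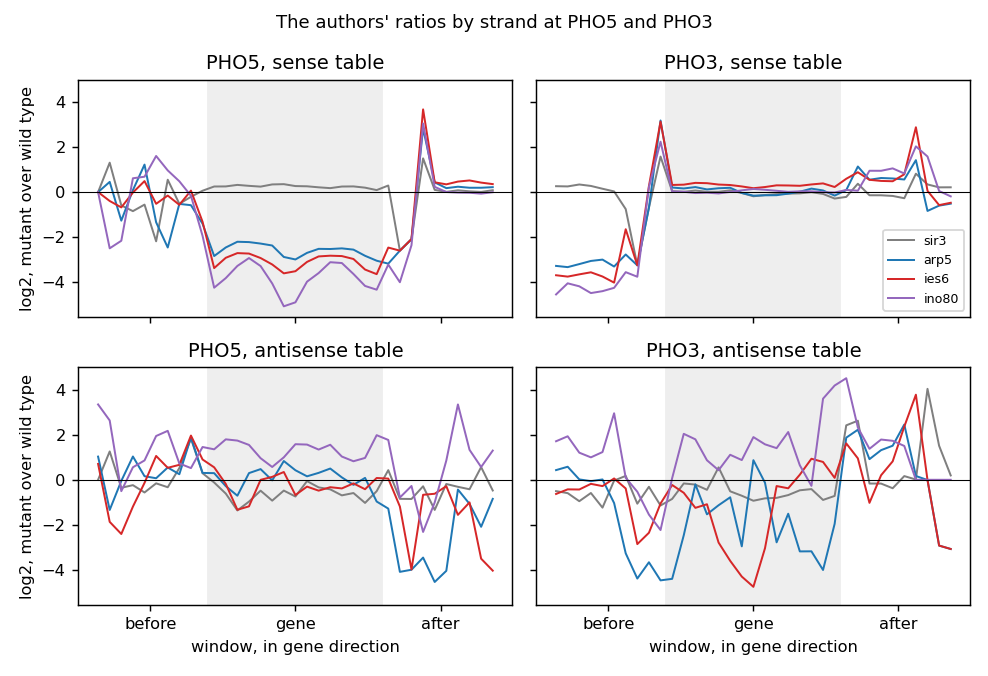
The authors' windowed log2 ratios by strand at PHO5 and PHO3 in sir3, arp5, ies6 and ino80, with the gene shaded. The sense lines of PHO5 lie below 0 in arp5, ies6 and ino80, with gene means of -2.60, -3.12 and -3.84, those of PHO3 stay near 0 in the gene and are low before it where PHO5 lies, and the antisense lines of PHO3 in arp5 and ies6 average -1.96 and -1.35.

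On chromatin, H3K4me3 is a mark of the starts of transcribed genes. It was lower in arp5 than in BY4741 over the first 500 bp of PHO11, PHO12 and PHO5. Before the start it was lower at PHO5, and hardly so at PHO11 and PHO12 by the median over 500 bp. The values are the authors' log2 ratios of precipitate over input in windows of 50 bp, from 1 library per strain, so no test was possible. Over the first 500 bp the median was 0.87 in BY4741 and -0.93 in arp5 at PHO11, 0.90 and -0.60 at PHO12, and 0.91 and 0.28 at PHO5. In each of these genes all 10 windows were lower in arp5, and at PHO11 and PHO12 all 10 by more than 1.

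The starts of PHO3 and PHO8 differed less. Over the first 500 bp of PHO3 the median was 1.56 in BY4741 and 1.19 in arp5, and the highest window was 1.93 and 2.13. PHO8 stood at 1.46 and 1.94, with 1 of 10 windows lower in arp5. The median difference over all 6664 genes was 0.01, with 3.68% of genes below -1 and 3.35% above 1. PHO11 and PHO12 were below -1, and PHO5, at -0.63, was not. The first 500 bp were chosen after seeing the data. Over the whole gene, a planned region, the median differed least at PHO5, by -0.65. It differed by -1.43 at PHO3, -1.22 at PHO11, -1.20 at PHO12 and -1.13 at PHO8, against -0.13 over all genes. By that measure H3K4me3 did not part these genes as RNA did. As for RNA, reads shared by PHO11 and PHO12 make their separate ChIP values uncertain.

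In the 500 bp before the start the order was different. The median H3K4me3 went from 0.58 in BY4741 to -0.76 in arp5 at PHO5, a difference of -1.33 that 1.98% of genes matched or passed. PHO8 went from 0.66 to -0.08 and PHO3 from -0.16 to -0.54. PHO11 went from -0.44 to -0.59 and PHO12 from -0.27 to -0.30, so by this median the terminal genes were close in both strains. Over 300 bp before the start the differences there were larger, at -0.63 for PHO11 and -0.50 for PHO12, beside -1.26 for PHO5.

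Among the 50 genes, PHO11 and PHO12 included, whose RNA was below -2 on the log2 scale in arp5, the median H3K4me3 difference over the first 500 bp was -0.48, and 34% were below -1. Among 5661 genes within 2-fold the median was 0.01 and 2.84% were below -1. PHO11 at -1.81 and PHO12 at -1.51 thus lay below the median of genes with falls of that size.

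The far end of the genes gave a different order. Over the last 500 bp of PHO5, H3K4me3 was 1.18 in BY4741 and 1.22 in arp5, so its end kept the level while its start was lower. At PHO3 it was the other way round: the last 500 bp went from 0.90 to -0.71, all 10 windows being lower by more than 1, and 1.61% of genes were as low or lower. PHO3 was marked over nearly its whole length in BY4741, with 27 of 28 windows in the authors' deposited list of significant H3K4me3 windows. The list held 21 of 28 for PHO5, 17 of 34 for PHO8 and 6 of 28 for each of PHO11 and PHO12. Over all genes the median was 10, with no allowance for gene length. As many windows or more were held by 0.375% of genes for PHO3, 3.65% for PHO5, 9.56% for PHO8 and 78.3% for PHO11 and PHO12. PHO3 RNA was 252.9 FPKM in BY4741 and 250.2 in arp5, so this lower H3K4me3 came without a difference of that size in its RNA.

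**Figure D5:**
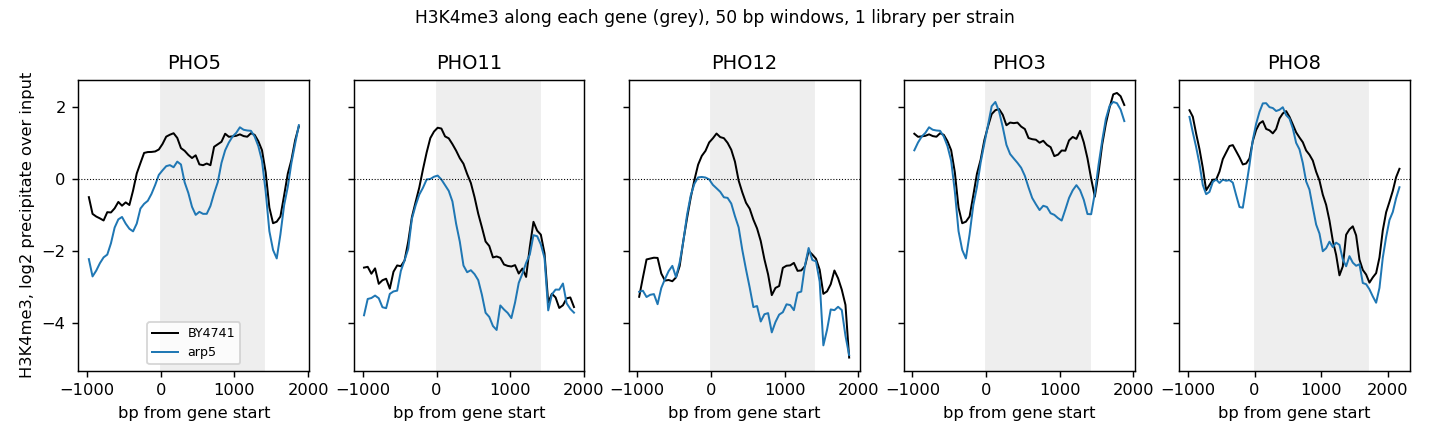
H3K4me3 (log2 of precipitate over input) by distance from the gene start in BY4741 (black) and arp5 (blue), in 50 bp windows, with the gene shaded and 1 library per line. The peak at the start of PHO11 goes from 1.41 to 0.09 and that of PHO12 from 1.25 to -0.17, the start of PHO3 keeps its peak, and the far part of PHO3 is lower in arp5.

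H3K79me3, a mark of transcribed gene bodies, was higher in arp5 before the terminal genes and lower inside them by the median over the gene. For the difference before the start, 95.6% of genes were as low as PHO11 or lower and 97.5% as low as PHO12. In the 500 bp before the start, the median went from -2.51 to -1.19 at PHO11 and from -2.67 to -1.20 at PHO12, with 10 of 10 windows not lower in arp5 at each. The authors' deposited H3K79me3 table of arp5 against BY4741 gave 1.04 and 1.18 for the same stretches, against a median of 0.49 over all genes. Over 300 bp the differences were 0.56 and 0.74, nearer to the median over all genes of 0.44 for 500 bp.

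Inside the genes H3K79me3 was -0.09 in BY4741 and -0.70 in arp5 at PHO11 and -0.46 and -0.78 at PHO12. For both, the authors' deposited H3K79me3 table gave -0.34. PHO5 went from -0.01 to 0.22, PHO3 from 0.17 to 0.04 and PHO8 from 0.08 to 0.45, in a background where the median difference over all genes was -0.01. The authors' deposited H3K79me3 table gave 0.15 for PHO5, 0.27 for PHO3 and 0.56 for PHO8, against a median of 0.07. The sign for PHO3 was thus opposite there, and the mean over windows gave a difference of 0.04, so its direction is uncertain.

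Arp5 itself was mapped in CY1838 cells synchronised by nocodazole arrest and release into alpha-factor, at an OD of 0.6, unlike the RNA cells. Of the 10 windows in the 500 bp before each gene, the authors' deposited list of significant Arp5 windows held 9 for PHO5, PHO11 and PHO12 and 10 for PHO3 and PHO8. The median over all genes was 7, and 42.1% of genes had 9 or more, so such coverage was common. PHO3 had the highest mean in the authors' deposited list, at 1.34, which 2.06% of genes with a listed window reached, against 0.54 to 0.75 for the other 4 members. The 500 bp before PHO3 hold the 446 bp between the genes and then run into the end of PHO5. The highest listed window there, at 1.73, was centred 274.5 bp before the start of PHO3, between the genes.

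Inside the genes the authors' deposited list of significant Arp5 windows held 7 of 28 windows of PHO5, 2 of 28 of PHO3, 11 of 34 of PHO8 and none of PHO11 or PHO12. The median over all genes was 4 windows inside the gene, and 5751 of 6664 genes had a listed window there. PHO11 and PHO12, the members with the lowest RNA in arp5, were thus below PHO3 and PHO8 in this count. PHO5, whose RNA fell in arp5 too, was above PHO3, with 7 windows against 2. In the count before the gene PHO11 and PHO12 stood close to PHO3 and PHO8. Reads shared by PHO11 and PHO12 make their counts of listed windows uncertain. A link between Arp5 windows and RNA was not tested.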

How the data were processed

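Libraries were grouped by the titles in the labels; the arp5 ChIP libraries carry the genotype WT in another label field, and their titles were used. For RNA the authors deposited FPKM, 1 column per genotype; the submitters' processing notes name sacCer3, TopHat2 2.0.8, Bowtie and Cuffdiff 2.0.2, and multi-mapping rules were not given in the sources used here. For ChIP the authors deposited log2 ratios in 50 bp windows; the submitters' processing notes name Bowtie 0.12.9, and scaling, caller and thresholds were not given in the sources used here. Windowed RNA ratios, taken as log2, were deposited too. Depth is not known for any value, so no interval is given.

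Ratios were log2 of (FPKM + 1), counted at 5 FPKM or more in either genotype, with deleted genes left out (Python 3.11.15, pandas 2.3.3, numpy 2.4.6). The 2-fold count was checked on simulated data. ChIP windows belonged to a region when their centre lay in it, and medians were taken. The replicate tests first planned for duplicate columns could not be run. Named genes were the members, all genes of the phosphate lists, the nearest genes on each side and the 3 genes most correlated with each member. The members and lists were chosen with earlier results of these data known. Positions are those of the authors' files; symbols and neighbours come from the RefSeq table of assembly R64. No genome sequence was used here. Alternatives changed the pseudocount, the filter, the scaling and the ChIP region.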

Additional observations from a re-analysis of the deposited data

How the results depend on the processing

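The counts of members past 2-fold, and each member's side of 2-fold, were kept in all 9 comparisons under each alternative. These were a pseudocount of 0.1 or 5, no filter, a mean of at least 10 FPKM, centring on the median and quantile normalization. Both filter settings kept every member and left its ratio untouched, so they could not change a member's call. The window counts were kept with the median over windows in place of the mean. Directions were kept as well, except for 2 values near 0 under quantile normalization: PHO3 in arp5 went from -0.016 to 0.027 and PHO8 in ies2 from -0.044 to 0.044. Over all genes, calls lower in CY337 than in BY4741 went from 194 to 365 with centring and 306 with quantile normalization, and calls higher from 547 to 265 and 270. Calls higher in sir3 went from 122 to 72 with a mean of at least 10 FPKM, and with a pseudocount of 5 those in arp5 went from 408 to 261 and those in ies2 from 244 to 160. For H3K4me3 in arp5 minus BY4741 the part of the gene mattered. PHO8, at -1.13 by the median over the gene, stood at -0.29 by the mean, 0.48 over the first 500 bp, which reverses the sign, and -0.17 over the last 500 bp. PHO11, at -1.22 over the gene, stood at -1.81 over the first and -0.35 over the last 500 bp, PHO3 went from -1.43 to -0.37 over the first 500 bp, and PHO5 from -0.65 to 0.042 over the last. For H3K79me3, PHO11 went from -0.61 over the gene to 0.20 over its last 500 bp, and before the gene PHO11 went from 1.32 to 0.56 and PHO12 from 1.47 to 0.74 when 300 bp were taken in place of 500. The first and last 500 bp were chosen after seeing the data. No paired analysis was possible because each genotype has 1 deposited column, and for the same reason no replicate could be left out. Depth is unknown, so how far counting error limits the low FPKM of PHO11 and PHO12 was not tested.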
